A study of Mus musculus with 8 samples.

Results

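The accessible chromatin around the 8 AP-1 genes Fos, Fosb, Fosl1, Fosl2, Jun, Junb, Jund and Atf3 was described in mouse granulosa cells, 8 of 21631 protein-coding genes of the annotation. Each gene's window was its body with 50 kb on either side. Every deposited ATAC-seq peak that touched a window was kept, whatever its height. Peaks that shared at least 1 bp were merged into regions, which gave 131 regions in the windows of 98245 over all 8 libraries.

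AP-1 is a dimer of basic leucine zipper proteins that binds DNA at the TPA response element and related sites. Fos proteins (Fos, Fosb, Fosl1, Fosl2) do not form stable dimers among themselves and need a Jun partner, whereas Jun proteins (Jun, Junb, Jund) can also pair with each other. Atf3 is a stress-induced partner of Jun proteins. Fos, Fosb, Jun, Junb and Atf3 are immediate-early genes, copied within minutes of a signal from promoters kept ready for use, and several family members are induced in granulosa cells by the ovulatory surge of luteinising hormone.

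In ATAC-seq, sequencing adapters are inserted into open DNA by the transposase Tn5, so peaks of fragments mark accessible chromatin. Mice aged 21 days received 5 IU of equine chorionic gonadotropin (eCG, also called PMSG). They were killed 46 h later, or were then given 5 IU of human chorionic gonadotropin (hCG), a stand-in for the LH surge, and killed after a further 6 h. Granulosa cells, which nurse the oocyte inside the follicle and answer the LH surge, were collected by puncturing the ovaries, and each replicate pooled 2 to 3 mice.

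The LH experiment used wildtype mice of the CBA x C57BL/6 F1 cross and had 2 libraries titled hCG and 2 titled PMSG. Their time tags contradict the titles, with 0 h on the hCG libraries and 6 h on the PMSG libraries. The source names match the titles, and the titles were followed, so every direction between hCG and PMSG rests on them. The PR experiment used strain C.129S7(B6)-Pgrtm1Bwo/OmcJ, in which Pgr, the gene of the progesterone receptor, is targeted, with 2 libraries of wild-type mice (WT) and 2 of knockout mice (KO), all tagged 6 h after hCG. All groups had received eCG. Strain and experiment coincide, so the experiments cannot be told apart from the strains.

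The lists held between 55654 and 84313 intervals covering 29.8 to 43.9 Mb. Both WT lists were longer (80137 and 84313) than both KO lists (58851 and 55654), and both hCG lists covered more DNA (38.2 and 39.0 Mb) than both PMSG lists (29.8 and 29.9 Mb). Read depth is unknown, because the lists hold no read numbers. Of 8 granulosa marker genes, 6 had a peak within 1 kb of a gene end in all 8 libraries, while Cyp19a1 had none in any library and Nr5a2 had one in 1 library. Of 3 leukocyte markers none had a peak in all 8 and Ptprc and Csf1r had none at all, while Cd68 had a peak in both hCG libraries and in no other. Upk3b, a surface epithelium marker, had one in both hCG libraries and KO replicate 1, Zp3 (oocyte) in hCG replicate 2 and KO replicate 1, and Cyp17a1 (theca) in PMSG replicate 2 and WT replicate 1. Cdh5 (endothelium), both smooth muscle markers, 2 of 3 oocyte markers, 1 of 3 theca markers (Ptch1) and 1 of 2 surface epithelium markers (Krt8) had one in every library; the part of other cells in the results was not tested.

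RefSeq promoter sequences (build GRCm38.p6) were found for 7 members, all but Fosl1. The 120 bases just upstream of the start site are shown for 5 of them, 5′ to 3′ on the gene's strand, because these are the stretches that the start-site intervals described next either cover (Fos, Jun, Junb, Atf3) or miss (Jund). Capitals mark matches to TGACG (a half-site of the cAMP response element), to TGACNTCA (the 8-base element with a free middle base) and to the TATA box TATAAA, searched on both strands.
Fos, chr12:85473770-85473889, plus strand: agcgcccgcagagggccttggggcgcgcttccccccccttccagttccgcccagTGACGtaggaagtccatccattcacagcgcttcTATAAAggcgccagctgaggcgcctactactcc
Jun, chr4:95052223-95052342, minus strand: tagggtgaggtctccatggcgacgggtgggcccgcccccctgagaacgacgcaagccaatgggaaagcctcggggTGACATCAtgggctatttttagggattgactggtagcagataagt
Junb, chr8:84978749-84978868, minus strand: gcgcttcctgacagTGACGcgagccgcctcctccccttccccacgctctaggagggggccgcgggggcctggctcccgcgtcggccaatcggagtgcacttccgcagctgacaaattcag
Atf3, chr1:191183334-191183453, minus strand: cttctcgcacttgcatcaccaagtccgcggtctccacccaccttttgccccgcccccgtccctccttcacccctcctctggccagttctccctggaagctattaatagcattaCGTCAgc
Jund, chr8:70697619-70697738, plus strand: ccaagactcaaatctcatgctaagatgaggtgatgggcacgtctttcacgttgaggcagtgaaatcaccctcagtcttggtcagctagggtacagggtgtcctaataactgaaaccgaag

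From the elements that AP-1, CREB and serum response factor are known to bind, 3 were searched for in full. None was spelled out in the window of 250 bases before to 50 after any of the 7 start sites. They were TGANTCA (the TPA response element with a free middle base, in 7.81% of 32851 promoters), TGACGTCA (the cAMP response element, 1.79%) and the CArG box (1.63%). Bases farther upstream were not searched. The 3 shorter or looser forms were searched after the sequences had been seen, upstream of the start sites of the members and over the whole window for the shares. TGACG, part of every TGACGTCA, was present in Fos, Fosb, Junb and Atf3 and in 20.8% of all promoters, TGACNTCA in Jun alone and in 8.83%, and TATAAA in Fos alone and in 13.6%. Jund had the fewest CG dinucleotides, 3 in the 250 upstream bases at a GC content of 47.6%, against 15 to 24 at 58.4% to 68.8% in the other 6. The medians over 21045 promoters of protein-coding genes were 10 and 55.6%.

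The start sites of Fos, Fosb, Jun, Junb and Atf3 lay in a peak interval in all 8 libraries, as did the lower end of the Fosl1 gene (its strand is not given). These intervals had low fold for start sites. Fold here is the authors' enrichment of a peak's best summit over the peak caller's background, and rank is its percentile in its own list, from 0 (lowest) to 100 (highest). The median start-site interval of a coding gene ranked between 74.9 and 83.1 in the 8 lists. The mean rank of Junb over the 8 libraries was 8.83, of Fosb 12.4, of Fos 14.4 and of Jun 14.7. Of 9468 start sites of coding genes in an interval of every library, 0.739% ranked lower than Junb, 1.01% lower than Fosb, 1.27% lower than Fos and 1.28% lower than Jun. Atf3 stood apart from these 4, at a mean rank of 59.7, with 19.1% of start sites ranked lower.

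The width of the same intervals did not follow their fold. Jun, the main transactivating partner of Fos, had an interval of 1727 to 2605 bp with 3 to 5 summits, and 98.7% of the 9468 start-site intervals were narrower on average. Atf3 was similar, at 1483 to 1910 bp (94.5% narrower), and Fos was near the middle, at 845 to 1494 bp (64.9%). Junb (439 to 1138 bp; 9.45%) and Fosb (428 to 734 bp; 2.57%) had narrow intervals. Ranked by the authors' −log10 q in place of fold, Jun had a mean percentile of 93.3 and Atf3 of 94.8, above the median start site at 89.7, while Fos (84.1), Junb (78.4) and Fosb (66.2) lay below it. Jun was thus low by fold but not by width or q, and Fosb and Junb were low by all 3 measures.

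Jund, a Jun protein known for steady rather than induced expression, had its start site in no interval of any library. The nearest one lay 505 to 626 bp downstream, inside the gene, and was 1052 to 1932 bp wide. Ranked by −log10 q it lay at percentiles of 88.3 to 97.9. Only 1 RefSeq start site per gene was used, and whether Jund has another start at that interval was not tested. Fosl2, which encodes Fra-2, had its start site in an interval of hCG replicate 1 only. In the other 7 libraries the nearest interval ended upstream of the start, at distances of -398 to -41 bp, and the PMSG libraries ended farthest away (-398 and -379 bp). Measured at that nearest interval, Fosl2 ranked between 20.7 and 36.9 and Jund between 12.03 and 46.1 over the 8 libraries.

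**Figure D1:**
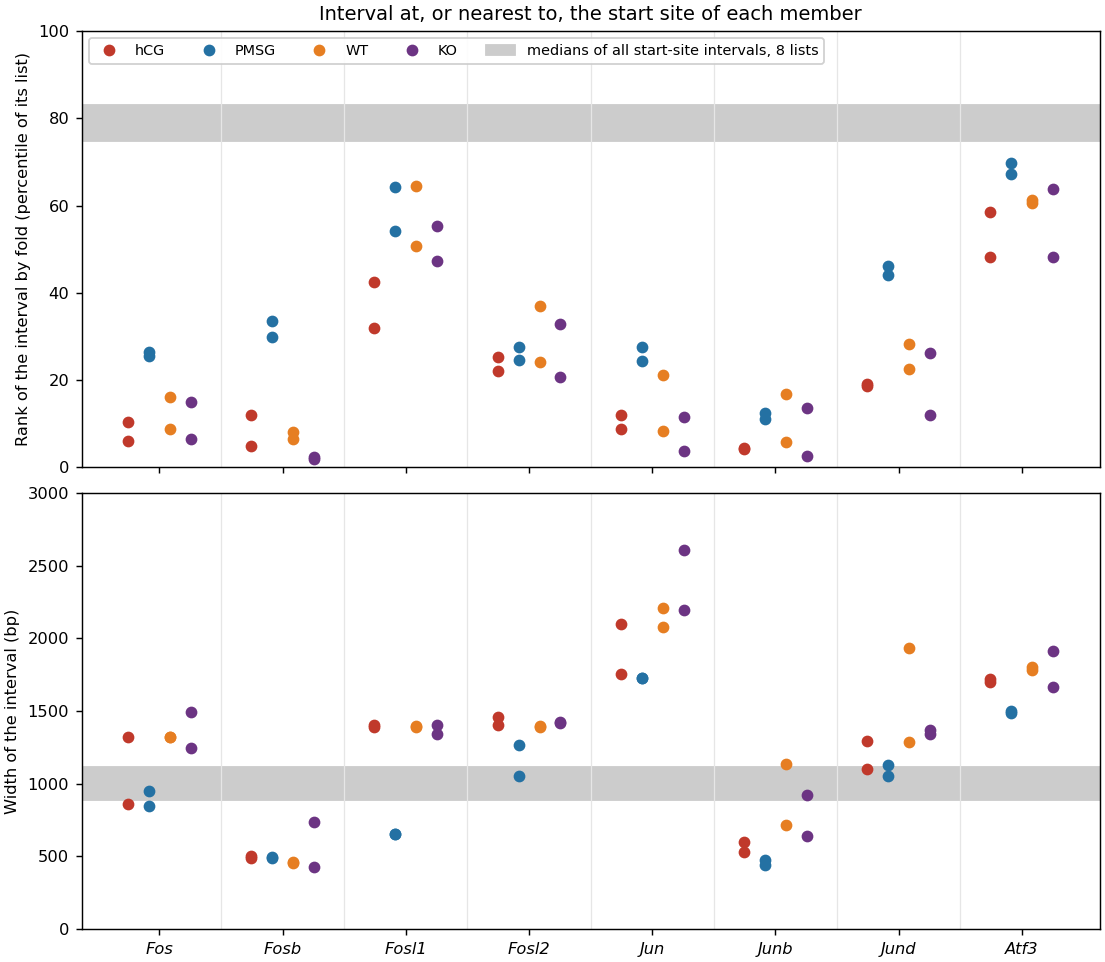
Rank by fold (percentile of the list, top) and width in bp (bottom) of the interval at or nearest to each member's start site (lower gene end for Fosl1), one point per library, coloured by group; the grey band spans the 8 lists' medians over all start-site intervals. All points of the rank panel lie below the band, with Fos, Fosb, Jun and Junb lowest, and the PMSG points lie above the hCG points in every member but Fosl2.

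Between hCG and PMSG, the start-site intervals of the members ranked lower in the hCG lists. The interval of Fos ranked at 6.05 and 10.3 in the hCG libraries and at 25.6 and 26.4 in the PMSG libraries, with folds of 3.87 and 4.67 against 6.68 and 6.93. That of Fosb, a Fos protein with a known truncated isoform, ranked at 11.95 and 4.94 against 33.5 and 29.96. That of Jun ranked at 8.76 and 11.9 against 27.5 and 24.4. The groups did not overlap in any of these 3 genes. Junb ranked at 4.07 and 4.29 against 12.4 and 11.1, and Atf3 at 58.5 and 48.3 against 67.2 and 69.8. Both PMSG libraries thus lay above both hCG libraries in 5 of the 5 members whose start site lay in an interval of all 4 libraries, where 54.6% of 9683 start sites did and 14.6% showed the opposite order.

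With the nearest intervals of Fosl1, Fosl2 and Jund added, the order held in 7 of 8 members. The nearest interval of Jund ranked at 18.6 and 19.1 against 46.1 and 44.2, and the lower-end interval of Fosl1, which encodes Fra-1, at 42.4 and 31.9 against 64.2 and 54.3. Fosl2 overlapped, at 25.4 and 22.2 against 27.5 and 24.7. Ranked by −log10 q, the order held in 5 of 8 (4 of the 5 with a start site in an interval, against 32.7% of all start sites) and was the opposite in Fosl1 (75.6 and 72.2 in hCG, 67.8 and 63.0 in PMSG) and Atf3 (97.4 and 95.9 against 93.9 and 94.6), an order seen in 32.3% of all start sites. Width went the other way from fold: both hCG libraries were wider than both PMSG libraries at Atf3, Jun and Junb, 3 of 5, against 84.1% of all start sites. The lower-end interval of Fosl1 was 1392 and 1405 bp wide in hCG and 650 and 655 bp in PMSG. With 2 libraries a group, an exact test over the 3 possible splits cannot give a p under 0.333, so no region was tested.

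Between WT and KO the start-site intervals overlapped in rank in all members but Fosb. Fosb ranked at 7.99 and 6.42 in WT and at 1.78 and 2.26 in KO, 1 of 5 members against 29.7% of all start sites. Cut to the same number of intervals in every list, the Fosb ranks were 2.43 and 1.34 in WT and 1.13 and 2.26 in KO, and overlapped. In that setting Fos, Fosl2, Jund and Atf3 ranked higher in both KO libraries; for Fos and Atf3, 2 of the 5 with a start site in an interval of all 4 libraries, the share of all start sites was 23.2%. Ranked by −log10 q, Fos, Fosb and Jun were higher in both WT libraries, 3 of 5 against 55.4%. The order between WT and KO thus changed with the setting. The ranks of Jun were 8.22 and 21.2 in WT and 3.77 and 11.6 in KO, and those of Fos 8.76 and 16.1 against 6.56 and 15.0. Within both groups replicate 2 ranked higher than replicate 1 in these 2 genes, by more than the groups differed.

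Around the start sites, the LH experiment had 119 regions in the 8 windows, of 81943. All 4 libraries held 67 of them, 56.3% against 49.9% of all regions. Both hCG libraries and neither PMSG library held 18 (hCG-only), 15.1% against 17.7% of all regions. Both PMSG libraries and neither hCG library held 4 (PMSG-only), 3.36% against 10.4%. The hCG-only share was thus near that of all regions and the PMSG-only share below it. Every window had at least 1 hCG-only region. Fos, Fosb, Fosl2 and Atf3 had 3 each, of 14, 16, 17 and 13 regions, while Fosl1 had 2 of 14, Jund 2 of 18, Junb 1 of 20 and Jun 1 of 7.

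None of the 18 hCG-only regions covered a start site of a coding gene, and 13 lay outside any coding gene. For 10 of them the nearest start site was that of the member itself; the 2 of Fosl1, which has no start site in the promoter table, could not be counted there. Their mean rank in the hCG lists had a median of 8.42, against 37.7 for all 14473 hCG-only regions, and their median width was 508 bp against 359 bp. Of the 18, 15 ranked below the median of all hCG-only regions, 12 were wider than the median width of all, and 9 were both. The windows of Fosb, Fosl1, Junb and Jund also held 5 to 11 other coding genes, and a region there may belong to any of them; those of Fos, Fosl2 and Jun held no other coding gene and that of Atf3 held 1 (Fam71a).

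**Figure D2:**
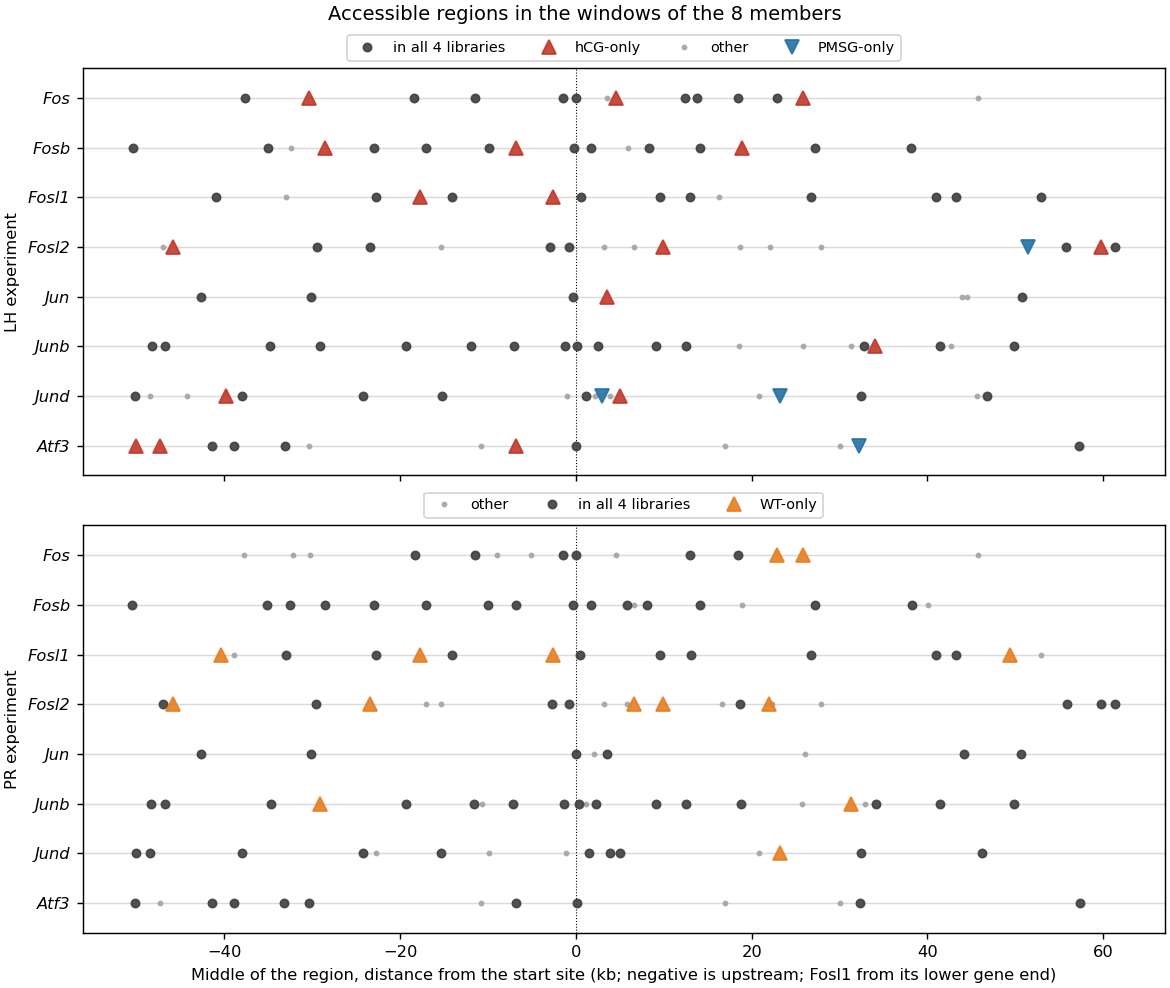
Position of each region's middle relative to the member's start site (kb; Fosl1 from its lower gene end, which has no stated strand) in the LH experiment (top) and the PR experiment (bottom); triangles are regions held by both libraries of one group and neither of the other, dark points regions in all 4 libraries and small points the rest. The 18 hCG-only and 4 PMSG-only regions, and the 14 WT-only regions, lie away from the start sites, and no KO-only region is drawn because there is none.

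Fos had the hCG-only region of highest rank. It lay at -30.3 kb (chr12:85443375-85443788), outside any coding gene, where negative distances are upstream. Its folds were 12.6 and 11.3 and its ranks 82.6 and 71.9 in the hCG libraries. It was also held by WT, at ranks of 52.7 and 58.6, and by KO replicate 1 at 22.5, but not by KO replicate 2. A second lay at +25.8 kb (chr12:85499611-85499820), with folds of 5.52 and 6.08 in hCG and of 5.81 and 6.39 in WT, and no peak in PMSG or KO. Another, just past the gene at +4.61 kb, had folds of 2.45 and 2.16 and ranks under 1 in both hCG libraries (0.679 and 0.183).

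In the window of Atf3, 2 of the 3 hCG-only regions ranked above the median of all hCG-only regions. The one at -6.85 kb (chr1:191189915-191190444) ranked at 37.8 and 46.4 in hCG and was held by all 4 PR libraries, at 15.3 and 45.9 in WT and 13.7 and 8.76 in KO. The one at -47.3 kb (chr1:191230364-191230918) ranked at 36.8 and 52.3 in hCG, at 49.4 and 56.0 in WT and at 9.35 in KO replicate 1, with no peak in KO replicate 2. The last, at -50.0 kb, ranked at 10.1 and 17.8 in hCG.

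Fosl2 had hCG-only regions at -45.9 kb (chr5:32090457-32090768; folds of 4.64 and 4.45), inside the gene at +9.93 kb (chr5:32146229-32146569; 3.94 and 4.09) and beyond it at +59.7 kb (5.89 and 5.38). Fosl1 had 2, at -17.8 kb (chr19:5429681-5430166; folds of 3.93 and 4.18) and at -2.58 kb (chr19:5444999-5445235; 3.78 and 3.82). These 5 regions ranked between 4.85 and 25.4 in the hCG lists, so each was in the lower part of its list. Fosb had 3, of which the one at -6.85 kb had folds of 4.97 and 5.42, and those at -28.5 kb and, inside Rtn2, at +18.9 kb had folds of 2.49 to 4.30.

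The Jun genes had 4 hCG-only regions between them. That of Jun, at +3.496 kb just past the gene, had folds of 2.20 and 1.72. Those of Jund lay at +5.01 kb inside Iqcn, with folds of 2.00 and 1.88, and at -39.8 kb inside Pgpep1, with folds of 2.80 and 3.63. The region of Junb lay at +34.0 kb inside Mast1, with folds of 6.51 and 5.80, and was held by all 4 PR libraries. The region of Junb thus ranked higher (32.5 and 20.6) than those of Jun and Jund, which ranked under 4 in every hCG library.

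The 4 PMSG-only regions belonged to Jund (2), Fosl2 and Atf3. The region of Jund at +23.2 kb, inside Gm3336 (chr8:70720878-70721023), had folds of 10.3 and 11.7, and that at +2.97 kb folds of 2.25 and 1.83. The region of Fosl2 at +51.5 kb had folds of 8.02 and 8.29 and no peak in any PR library. The region of Atf3 at +32.3 kb (chr1:191150926-191151222) had folds of 7.72 and 13.5 and was held by all 4 PR libraries.

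**Figure D3:**
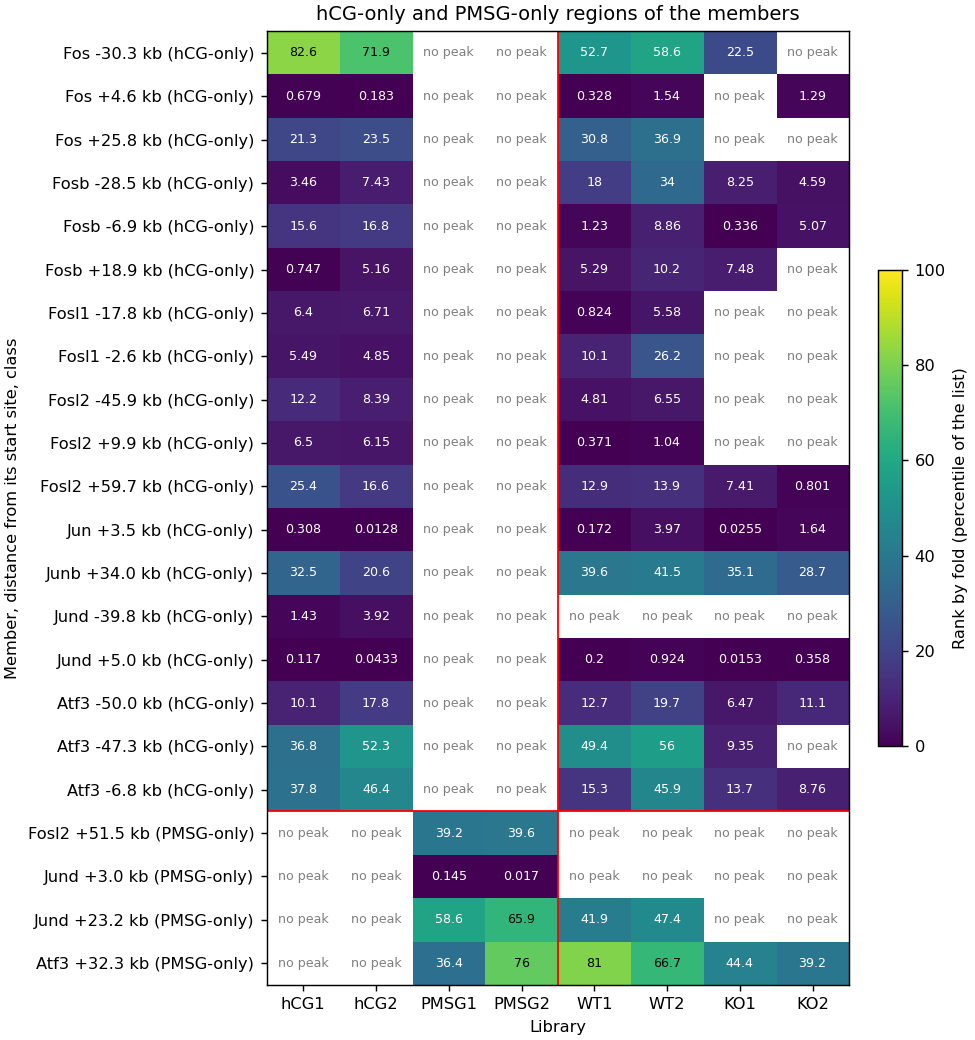
Rank by fold (percentile of the list; colour and number in the cell) of the 18 hCG-only regions (above the red line) and 4 PMSG-only regions (below) in each of the 8 libraries, with rows named by member and distance from its start site; white cells have no peak. The region of Fos at -30.3 kb has the highest hCG ranks, 82.6 and 71.9, and most other hCG-only regions rank under 40.

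Of the 67 regions held by all 4 LH libraries, 39 ranked higher in both PMSG libraries than in both hCG libraries, 58.2% against 39.4% of 40922 such regions. The opposite order was seen in 11, 16.4% against 32.4%. By width, 51 regions (76.1%) were wider in both hCG libraries and 2 (2.99%) in both PMSG libraries, against 64.2% and 11.7%. Ranked by −log10 q, 25 of the 67 were higher in PMSG (37.3% against 36.4%) and 21 in hCG (31.3% against 38.1%), so the excess in PMSG is in the fold column and is near the background by q.

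The largest shifts to hCG lay far upstream of their genes. A region of Jun at -42.6 kb (chr4:95094595-95095041) ranked at 58.3 ± 5.67 in hCG and 11.9 ± 5.80 in PMSG (mean ± SD, n = 2 in each group). A region of Atf3 at -38.9 kb (chr1:191222009-191222398) ranked at 50.4 ± 1.91 against 5.37 ± 1.67. A region of Fosl2 at -23.5 kb (chr5:32112704-32113328) ranked at 71.6 ± 5.44 against 28.5 ± 10.4. In each of the 3 the nearest start site was that of the member and both hCG libraries lay above both PMSG libraries. The largest shifts to hCG in the other 5 windows were of 9.20 (Jund) to 22.0 (Fosl1) percentile points. They were at -37.7 kb of Fos (42.5 ± 12.3 in hCG against 25.1 ± 10.6 in PMSG), and at -50.4 kb of Fosb over the start of Cd3eap (41.4 ± 4.17 against 24.4 ± 1.48). The others lay at +52.9 kb of Fosl1 inside Snx32 (44.7 ± 13.2 against 22.8 ± 0.910), at -7.02 kb of Junb (20.3 ± 1.12 against 5.67 ± 1.02) and at +46.8 kb of Jund inside Pde4c (24.7 ± 7.26 against 15.5 ± 5.04). With lists of equal length those of Fos and Jund overlapped and the Jun region at -42.6 kb was no longer in all 4 lists.

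The largest shift to PMSG was at the start of Hook2, a motor adaptor gene in the window of Junb (-11.9 kb, chr8:84989929-84991328), which ranked at 27.7 ± 1.28 in hCG and 71.9 ± 0.887 in PMSG. Regions of Fosl2 at +61.4 kb (30.02 ± 14.99 against 74.2 ± 4.96) and of Fosb at +14.1 kb inside Rtn2 (32.7 ± 36.9 against 73.5 ± 1.28) were the next of these; a further region of Fosl2, at -29.5 kb, shifted by more than that of Fosb (24.4 ± 11.2 against 68.0 ± 4.59). The hCG value of the Fosb region came from very unequal libraries, 6.62 and 58.8. A region of Fos at +12.4 kb (chr12:85485574-85487028) ranked at 55.1 ± 1.84 in hCG and 78.5 ± 3.54 in PMSG. A region of Atf3 at -41.3 kb ranked at 30.3 ± 9.79 against 57.7 ± 4.41, and a region of Jund at -38.0 kb, over the start of Pgpep1, at 66.0 ± 3.47 against 92.6 ± 1.34. For Fosl1 and Jun the largest shift to PMSG was that of the lower-end and the start-site interval, given above.

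The hCG-only regions of the members were then read in the PR libraries, which come from the other experiment and strain. WT replicates 1 and 2 held 17 each of the 18 (94.4%), against 79.9% and 91.3% of all hCG-only regions. KO replicate 1 held 11 (61.1% against 63.4%) and KO replicate 2 held 9 (50% against 44.7%), so the KO shares were near those of all such regions. All 4 PR libraries held 8 (44.4%, against 40.9% of all 14473 hCG-only regions), and 1, that of Jund at -39.8 kb, had no peak in any. Both WT libraries and neither KO library held 5 (27.8% against 16.4%): the Fos region at +25.8 kb, both Fosl1 regions and the Fosl2 regions at -45.9 and +9.93 kb. With lists of equal length the count was 2 of 13 (15.4% against 5.54%): the Fosl1 region at -2.58 kb and the Atf3 region at -47.3 kb. With a −log10 q of 20 or more it was 3 of 18 (16.7% against 14.6%), near the share of all such regions. The KO lists were shorter, and the part of list length in the 5 was not tested beyond this.

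In the PR experiment itself the windows held 125 regions, of 91502, and all 4 libraries held 78 (62.4% against 53.3%). WT-only regions numbered 14 (11.2% against 12.1%) and KO-only regions 0 (against 0.0842%). Fosl2 had 5 WT-only regions of 20, Fosl1 4 of 15, Fos 2 of 15, Junb 2 of 21 and Jund 1 of 15, while Fosb, Jun and Atf3 had none. Their mean WT ranks ran from 0.334 to 44.7, so all were in the lower part of the WT lists. With lists of equal length, 2 of 100 regions were WT-only (2% against 2.77% of all) and 1 was KO-only (1% against 2.5%). The WT-only regions were Fosl1 at -2.58 kb and Atf3 at -47.3 kb, which was not among the 14. The KO-only region was that of Jun at +44.1 kb. The part of list length in the 14 was not tested beyond this.

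Besides the 5 regions shared with the hCG-only set, the WT-only regions of highest rank were that of Jund at +23.2 kb inside Gm3336 (41.9 and 47.4 in WT) and that of Junb at -29.1 kb inside Best2 (44.0 and 43.0). The Fosl2 region at -23.5 kb, shifted to hCG above, was WT-only in the PR experiment, with ranks of 32.0 and 28.9 in WT and no peak in KO. The Fosl1 region at -40.3 kb had folds of 4.79 and 4.86 in WT and no peak in KO. The Fosl2 regions at +6.61 kb and, just past the gene, at +22.0 kb had folds of 1.98 to 3.36 in WT. The last 3 ranked at 16.7 and 15.4 (Fos, +22.8 kb), at 2.66 and 6.59 (Fosl1, +49.4 kb, inside Snx32) and at 25.3 and 17.9 (Junb, +31.3 kb, inside Rtbdn) in WT.

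Of the 78 regions in all 4 PR libraries, 31 ranked higher in both WT libraries (39.7% against 44.9%) and 1 in both KO libraries (1.28% against 1.98%). By width 31 were wider in WT (39.7% against 34.7%) and 2 in KO (2.56% against 5.9%). Each share lay within about 5 percentage points of the background. With lists of equal length the rank order turned, to 3 regions higher in WT and 16 in KO of 65 (4.62% and 24.6%, against 10.7% and 20.7%), so no direction of rank between WT and KO is read for the family.

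Of the largest rank shift to WT in each of the 8 windows, 3 kept both WT libraries above both KO libraries with lists of equal length. They were the Fosl1 region at -33.0 kb (chr19:5414432-5414944), the Fosl2 region at -29.5 kb (chr5:32106607-32107299) and the Atf3 region at +32.3 kb (chr1:191150868-191151234). The Fosl1 region ranked at 81.7 and 73.9 in WT and at 18.01 and 39.2 in KO. The Fosl2 region ranked at 75.8 and 70.0 against 42.0 and 37.8, and the Atf3 region at 81.0 and 66.7 against 44.4 and 39.2. The other 5, which overlapped with lists of equal length, were at -1.501 kb of Fos (17.2 ± 7.42 in WT against 5.68 ± 0.671 in KO), at -28.5 kb of Fosb (26.0 ± 11.3 against 6.42 ± 2.59) and at -30.1 kb of Jun (45.9 ± 2.22 against 19.6 ± 1.99). Those of the remaining members were at +18.7 kb of Junb inside Rnaseh2a (62.6 ± 4.85 against 46.7 ± 8.93) and at -48.4 kb of Jund inside Pgpep1 (25.5 ± 1.11 against 9.63 ± 1.502). The only shift to KO was that of Jun at +44.1 kb, at 33.1 and 42.1 in WT against 46.8 and 50.7 in KO.

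In the other experiment, both PMSG libraries held each of these 3 regions, and the hCG libraries held the Fosl2 region in both, the Fosl1 region in 1 and the Atf3 region in none. The Fosl1 region had no peak in hCG replicate 1, ranked at 13.5 in hCG replicate 2 and ranked at 83.7 and 75.8 in PMSG. The Fosl2 region ranked at 16.5 and 32.3 in hCG and at 64.7 and 71.2 in PMSG. The Atf3 region was PMSG-only, at the unequal ranks of 36.4 and 76.0. The Jund region at +23.2 kb had the same order, with a peak in both PMSG and both WT libraries (58.6 and 65.9; 41.9 and 47.4) and none in hCG or KO. WT and hCG libraries are both from hCG-treated mice by their titles and design, yet at these 4 regions the WT libraries lay nearer to the PMSG libraries than to the hCG libraries. Over all regions the WT libraries differed from each other: WT replicate 1 held 79.9% of all hCG-only and 76.6% of all PMSG-only regions, and WT replicate 2 held 91.3% and 45.6%. Both WT libraries together held 78.6% of all hCG-only and 43.1% of all PMSG-only regions, and 17 of 18 and 2 of 4 of those of the members. The 4 were set side by side after their values were seen, and strain, experiment and the contradictory time tags of the LH libraries cannot be told apart here.

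Over the whole windows, the length under peaks was greater in hCG than in PMSG for all 8 members, with no overlap between groups. For Fos it was 8.96 ± 0.661 kb in hCG and 5.46 ± 0.0106 kb in PMSG (mean ± SD, n = 2), a ratio of 1.64. The ratios of the other 7 ran from 1.32 (Fosl1) to 1.59 (Fosb and Jun), and the median over 17111 genes was 1.29. Of 17151 coding genes with 3 or more regions in their window, 84.1% had both hCG libraries above both PMSG libraries. Scaled to the total covered length of each library, this order held for 7 of the 8 members against 36.5% of the genes, and Fosl1 overlapped (318 and 335 bp per Mb covered in hCG, 311 and 328 in PMSG). Between WT and KO the ratios ran from 1.04 (Jun) to 1.39 (Fosl2), with a median over 17100 genes of 1.20. Jun had 6.03 and 6.10 kb in WT and 6.73 and 4.97 kb in KO, so the KO libraries lay on both sides of WT. Fosl2 had 8.947 and 8.998 kb against 6.33 and 6.57 kb, without overlap. Both WT libraries lay above both KO libraries in 6 of 8 members, against 68.4% of genes. Scaled to the covered length this was 1 of 8 (Jund), against 17.9% of genes, and the order turned in 3 of 8, against 36.2% of genes with both KO libraries above both WT libraries. The 3 were Fosb (301 and 328 bp per Mb covered in WT, 373 and 363 in KO), Jun (137 and 140 against 173 and 157) and Junb (306 and 297 against 319 and 325). In the same measure Fosl2 overlapped (204 and 206 bp per Mb covered in WT, 163 and 208 in KO).

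**Figure D4:**
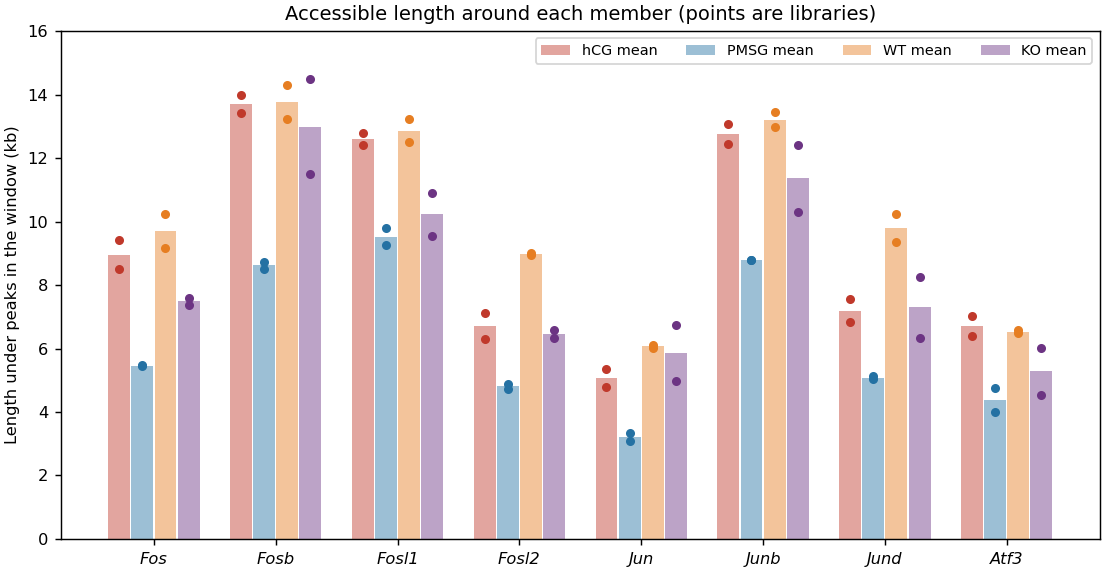
Length under peaks (kb) in the window of each member, as the mean of 2 libraries (bars, from 0) with each library as a point, by group. The hCG points lie above the PMSG points for every member, at ratios of 1.32 to 1.64 (84.1% of coding genes show the same order), while the KO points of Fosb and Jun lie on both sides of their WT points.

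Likeness between genes was described by the Pearson correlation, over the 8 libraries, of the share of each library's covered length that lay in the gene's window. The libraries share experiments and list lengths, and with 8 points among about 17100 genes high values are common. The 2 genes most like Fos were Klhl36 (0.968) and Znrd2 (0.968). For Fosb they were Slc35g3 (0.987) and Pth (0.985), for Fosl1 Higd1c (0.980) and Nap1l2 (0.978), and for Fosl2 Fndc3b (0.976) and Atg4a (0.942). For Jun they were Tap1 (0.981) and Txnrd1 (0.977), for Junb Efcab2 (0.980) and Bin3 (0.968), for Jund Kirrel (0.979) and Cryge (0.971), and for Atf3 Fbf1 (0.976) and Rrp8 (0.937). No other member was among them.

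Genes that act with AP-1 were counted in the same windows. The 12 bZIP partners (Batf, Atf and Maf genes and Jdp2) had 14 hCG-only and 8 PMSG-only regions of 109 (12.8% and 7.34%), with 3 hCG-only regions at Batf3 and 2 PMSG-only at Batf. The 9 MAP kinases and their activators, which phosphorylate Jun and Fos proteins and ternary complex factors, had 25 and 11 of 112 (22.3% and 9.82%), with 5 hCG-only regions at Map2k4 and 4 PMSG-only at Mapk9. The 5 dual-specificity phosphatases, which switch MAP kinases off, had 16 and 5 of 59 (27.1% and 8.47%), with 5 hCG-only regions at Dusp5 and 3 PMSG-only at Dusp6. The shares over all regions were 17.7% and 10.4%.

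The genes that switch on Fos came next. Srf and 3 ternary complex factors had 10 hCG-only and 7 PMSG-only regions of 42 (23.8% and 16.7%), with 6 hCG-only at Elk3 and 3 PMSG-only at Srf. The 3 CREB family genes had 6 and 4 of 31 (19.4% and 12.9%), with 3 hCG-only at Creb1 and 2 PMSG-only at Creb1 and Atf1 each. The 7 other immediate-early genes had 12 and 8 of 93 (12.9% and 8.60%), with 4 hCG-only at Ier3 and 2 PMSG-only at Ier2 and Nr4a1 each. The PMSG-only share of the 8 AP-1 genes, 3.36%, was thus lower than those of the 6 lists, which ran from 7.34% to 16.7%; the difference was not tested. In the PR experiment the 6 lists had 18, 15, 6, 4, 5 and 5 WT-only regions in the same order (5.32% to 16.1% of their regions), most at Mafg (5), Map2k4 (6), Dusp1 and Dusp6 (2 each), Elk4 (2), Creb1 (3) and Egr1 (2), and no KO-only region.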

How the data were processed

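ATAC-seq peak lists of 8 libraries were used, 1 list per library as the authors deposited it, as narrowPeak tables of 10 columns with no header line. Per the submitters' processing notes, Bowtie2, MACS2 and build mm10 were used; versions, filters and any shift for the Tn5 cut are not given in the sources used here. Names of peaks in the PR lists mention filtering and marked duplicates and those in the LH lists do not. Column 7 of the deposited lists was read as a fold, a linear ratio of summit over background, and columns 8 and 9 as −log10 of p and q; no deposited −log10 q was under 10.

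Several summits of the same interval were reduced to their best fold and q, on chromosomes 1 to 19 and X. Regions were intervals merged within an experiment. Ranks are percentiles within a list. Called regions are those where both libraries of a group lie on one side of both others. No region was tested: with groups of 2, an exact test cannot give a p under 0.333. Members, gene lists and motifs were chosen with earlier results of these data known. Named regions are all group-only ones (up to 6 per member) and the largest non-overlapping rank shift per member and direction. Genes and start sites came from RefSeq (GRCm38.p6, the assembly of mm10). The merging and calling steps were tested on simulated data. Alternatives were equal list lengths, a stricter q, other flanks, merging over all 8 lists, a coverage minimum, rank by q, counting within replicate numbers and leaving out each library. Python 3.11.15, numpy 2.4.6, pandas 2.3.3 and matplotlib 3.10.9 were used. Replicates are biological per the labels. The values of 1 gene of the other lists are not reported here.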

Additional observations from a re-analysis of the deposited data

How the results depend on the processing

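The labels do not say what libraries of the same replicate number share, and deviations from the group means of same-numbered libraries correlated at 0.0401 (LH) and -0.0485 (PR) in rank over shared regions. Counted within the replicate numbers (the replicate block, a setting chosen after seeing the data), regions ranked higher in WT numbered 52 of 78 (66.7% against 57.5% of all) and regions wider in KO 5 (6.41% against 8.48%); the other 7 counts stayed within 1.5 times. Start-site intervals ranked higher in WT within both numbers in 7 of 8 members and, with the numbers crossed, in 1 of 8. The share over all start sites was not counted for either pairing, so neither count is read as a trait of the members. Over 14 counts and their alternatives, 77 of 136 values stayed within 1.5 times the reported count and 59 did not. With equal list lengths (55654 intervals), 7 of 62 shared LH regions ranked higher in hCG (11.3% against 28.3% of all) and 1 was wider in PMSG (1.61% against 9.21%). WT-only regions numbered 2 of 100 (2% against 2.77%) and KO-only regions 1 (1% against 2.5%). Of 65 shared PR regions 3 ranked higher in WT (4.62% against 10.7%) and 16 in KO (24.6% against 20.7%). Of 13 hCG-only regions, 2 were held by WT and not by KO (15.4% against 5.54%). With a −log10 q of 20 or more, 7 of 59 shared LH regions ranked higher in hCG (11.9% against 32.9%) and 1 was wider in PMSG (1.69% against 10%). Of 18 hCG-only regions, 3 were held by WT and not by KO (16.7% against 14.6%).

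With flanks of 10 kb, hCG-only regions numbered 7 of 41 (17.1% against 17.7% of all), PMSG-only 1 (2.44% against 10.4%) and WT-only 4 of 46 (8.7% against 12.1%). Of the 7 hCG-only regions, 2 were held by WT and not by KO (28.6% against 16.4%). Of 21 shared LH regions 2 ranked higher in hCG and 17 in PMSG (81% against 39.4% of all), 14 were wider in hCG (66.7% against 64.2%) and 0 in PMSG. Of 28 shared PR regions 8 ranked higher in WT (28.6% against 44.9%) and 0 in KO, and 7 were wider in WT. With flanks of 100 kb, 21 of 110 shared LH regions ranked higher in hCG (19.1% against 32.4% of all) and 61 in PMSG (55.5% against 39.4%). By width, 85 were wider in hCG (77.3% against 64.2%) and 4 in PMSG (3.64% against 11.7%). Of 125 shared PR regions 48 ranked higher in WT (38.4% against 44.9%) and 5 were wider in KO (4% against 5.9%). WT-only regions numbered 32 of 199 (16.1% against 12.1%), where the share with 50 kb was 11.2%. Of 27 hCG-only regions, 8 were held by WT and not by KO (29.6% against 16.4%). Fewer or more regions were in the windows with these flanks. With rank by −log10 q, 21 of 67 shared LH regions ranked higher in hCG (31.3% against 38.1%) and 25 in PMSG (37.3% against 36.4%). Of 78 shared PR regions 48 ranked higher in WT (61.5% against 64.4%) and 0 in KO (0% against 0.615%). The cause of these changes was not tested.

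Leaving out each library in turn, hCG-only regions numbered 20 to 26 (17.9% to 22%, against 19.9% to 22.6% of all). PMSG-only regions numbered 6 to 7 (5.08% to 6.03%, against 11.6% to 14%), with 7 without either PMSG replicate. KO-only regions numbered 0 to 1 (0% to 0.781%, against 0.325% to 0.629%). WT-only regions numbered 16 to 29. They were 29 of 128 without KO replicate 1 (22.7% against 19.9%) and 22 of 122 without WT replicate 1 (18% against 25.1%). The side of the background thus depended on the library left out. Regions ranked higher in hCG numbered 15 to 19, in PMSG 42 to 49, in WT 40 to 71 (71 of 92 without KO replicate 2, 77.2% against 68.3% of all; 57 of 79 without WT replicate 1, 72.2% against 62.5%; 40 of 78 without WT replicate 2, 51.3% against 58.7%) and in KO 3 to 9. Regions wider in hCG numbered 56 to 61, in PMSG 5 to 6, in WT 40 to 62 (62 without KO replicate 1) and in KO 6 to 22 (22 without KO replicate 2). Regions hCG-only and held by WT and not by KO numbered 5 to 8. They were 8 of 18 without KO replicate 1 (44.4% against 35.2%) and 5 of 18 without WT replicate 1 (27.8% against 25.8%). Start-site intervals ranked higher in PMSG in 7 to 8 of 8 members, and the share over all start sites was not counted in these settings. With 1 library left in a group, fewer values have to lie on one side, and the shares over all LH or PR regions rise too. Settings for the last 2 counts were chosen after seeing the data. Depth is unknown, so absence of a peak is not absence of open chromatin.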

Other observations

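The motif that AP-1 binds, TGANTCA, was counted in RefSeq promoter windows (250 bases before to 50 after the start) by the regions they overlapped in the LH experiment. It was present in 20 of 142 windows that overlapped an hCG-only region (14.1%), in 1 of 45 that overlapped a PMSG-only region (2.22%) and in 543 of 12286 that overlapped a region of all 4 libraries (4.42%). Windows that overlapped no region held it in 883 of 8308 cases (10.6%). Base composition was not matched between these sets, and none of the 7 windows of the AP-1 genes held the motif.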
